A study of Mus musculus with 15 samples.

Results

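The 94 potassium channel genes described here are the GENCODE version M21 protein-coding genes whose symbol starts with Kcn, out of 21938 protein-coding genes. Membership was decided by the symbol alone, although the set was chosen with earlier results of these data known. For each gene, the highest-scoring H3K4me3 summit within 1 kb of any of its transcription start sites (TSSs) was taken as its promoter value, and summits inside the gene but over 1 kb from all of its TSSs were taken as gene-body summits.

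The study profiled trimethylation of lysine 4 of histone H3 (H3K4me3) by ChIP-seq in amygdala nuclei of adult male mice of the F1 generation of a 129xB6 cross, in WT mice and in mice with altered dosage of a writer or an eraser of the mark (Kmt2a-HET, Kdm5c-KO and DM, which carries both mutations). All values below come from the WT mice, which carry neither mutation. Their 2 ChIP samples, immunoprecipitated with the rabbit antibody RM340 after addition of synthetic nucleosomes, were deposited as 1 pooled list of 24162 peak summits, so there is no replicate to give a spread and no test between genes or subfamilies was made. The mutant samples, 3 per genotype, and the inputs were not analysed here.

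Each summit carries a score, read here as the −log10 of its q-value: a higher score means stronger statistical evidence of enrichment over input, not a higher amount of mark per nucleosome. The median score was 102 (quartiles 15.02 and 201), and 24139 summits lay on chromosomes 1 to 19, X and Y. In whole tissue, a gene marked in few cells and a gene marked weakly in many cannot be told apart. How many reads stand behind a score cannot be read from the list. Promoters of the neuronal marker genes Snap25, Syt1, Rbfox3, Slc17a7, Gad1 and Gad2 were marked in 6 of 6 cases, with scores from 104.8 to 267. Markers of astrocytes (4 of 4, scores 29.2 to 174), oligodendrocytes (4 of 4, 81.1 to 183) and endothelial cells (3 of 3, 15.5 to 33.8) were marked as well, and of 6 genes typical of other tissues only Ckm had a summit, at 9.05. Markers of the labelled brain tissue were therefore present, those of neurons with the highest median, 209.

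Potassium channels let potassium ions leave or enter cells along their gradient, and thereby set the resting potential, end action potentials and tune firing rate. Their pore-forming subunits fall into voltage-gated families, calcium- or sodium-activated families, inward rectifiers and leak channels, and smaller auxiliary subunits change their gating and trafficking. H3K4me3 is deposited around the TSSs of genes that are transcribed or poised, most readily where CpG dinucleotides are dense, so its presence at a channel gene's promoter is commonly read as a sign of an open promoter, while its absence in tissue leaves room for rare cells.

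Of the 94 genes, 73 had a promoter summit, a share of 77.7% with a 95% Wilson interval of 68.2% to 84.9% that covers counting error only. Among all protein-coding genes, 64.7% had one. The marked channel genes scored lower than marked genes at large: their median best score was 169 (quartiles 91.6 and 213, range 2.63 to 267), against a median of 195 (quartiles 130 and 230) over all 14197 marked protein-coding genes. A score of 150 or more was reached by 39 channel genes, or 41.5% of the 94, against 45.1% of all protein-coding genes. Counting only scores no lower than the list's median, the shares were nearly the same, 52.1% of channel genes (49 genes) and 52% of all genes. The larger share of marked genes among the channels thus came with scores under that median. Best scores below 10 were found for 4 of the 94 channel genes, against 451 of all 21938 protein-coding genes. Between 10 and 150 lay 30 of the channel genes, against 3860 of all genes.

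**Figure D1:**
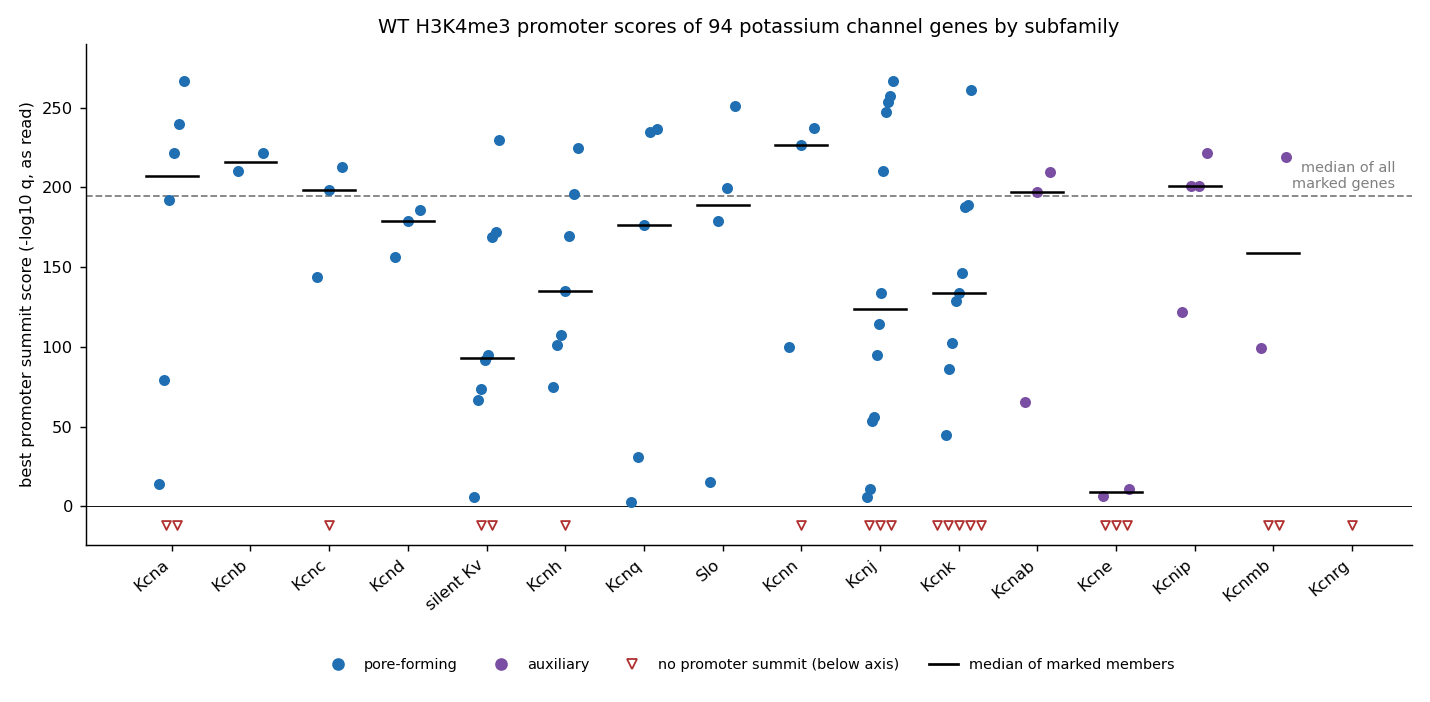
Best promoter summit score (vertical axis, −log10 q as read) of each of the 94 potassium channel genes by subfamily (horizontal axis); blue points are pore-forming and purple points auxiliary subunits, black bars are medians of marked members, and open triangles below the axis are the 21 genes with no promoter summit. The dashed line at 195 is the median of all marked protein-coding genes; Kcnj spreads from 6.06 to 267 and Kcne stays at or below 11.1.

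The range of CpG content among these starts can be seen in their sequence. Below are the 200 bases 5′ of the outermost TSS, on the strand of the gene, GRCm38 (mm10), in lower case with each CG in capitals, for the highest-scoring gene of the subfamilies Kcna, Kcnj and Kcnk and the unmarked gene of the same subfamily with the lowest CpG ratio (observed over expected CG around the outermost TSS). They are Kcna2 (chr3:107100946-107101145, plus strand, 3 CG) and Kcna10 (chr3:107182856-107183055, plus strand, 0 CG), Kcnj9 (chr1:172329319-172329518, minus strand, 5 CG) and Kcnj15 (chr16:95257358-95257557, plus strand, 1 CG), and Kcnk1 (chr8:125994970-125995169, plus strand, 10 CG) and Kcnk16 (chr14:20269200-20269399, minus strand, 2 CG).
Kcna2: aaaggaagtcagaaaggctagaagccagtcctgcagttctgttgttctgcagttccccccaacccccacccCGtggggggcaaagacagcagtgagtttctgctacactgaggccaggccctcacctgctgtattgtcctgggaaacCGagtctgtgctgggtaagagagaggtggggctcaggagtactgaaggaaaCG
Kcna10: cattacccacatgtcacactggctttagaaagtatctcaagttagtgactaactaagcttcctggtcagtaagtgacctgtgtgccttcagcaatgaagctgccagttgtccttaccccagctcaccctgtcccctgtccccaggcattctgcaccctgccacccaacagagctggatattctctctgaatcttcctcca
Kcnj9: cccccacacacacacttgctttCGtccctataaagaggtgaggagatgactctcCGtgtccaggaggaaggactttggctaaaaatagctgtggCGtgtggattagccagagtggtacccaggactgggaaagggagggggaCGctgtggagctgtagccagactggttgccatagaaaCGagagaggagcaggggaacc
Kcnj15: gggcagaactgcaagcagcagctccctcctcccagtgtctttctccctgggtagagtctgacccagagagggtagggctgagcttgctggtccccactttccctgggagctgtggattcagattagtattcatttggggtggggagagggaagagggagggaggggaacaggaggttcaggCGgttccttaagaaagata
Kcnk1: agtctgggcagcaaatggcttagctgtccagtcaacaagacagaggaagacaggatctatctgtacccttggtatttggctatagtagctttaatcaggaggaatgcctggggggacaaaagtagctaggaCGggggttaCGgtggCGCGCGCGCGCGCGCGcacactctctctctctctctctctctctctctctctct
Kcnk16: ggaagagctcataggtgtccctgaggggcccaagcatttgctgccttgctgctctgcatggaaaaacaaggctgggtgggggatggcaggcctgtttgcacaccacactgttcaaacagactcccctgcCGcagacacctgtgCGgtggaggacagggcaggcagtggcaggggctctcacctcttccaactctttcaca

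The unmarked gene of each pair was picked for its low CpG ratio, so the pairs show the range and compare nothing. In Kcna2, Kcnj9 and Kcnk1 the outermost TSS is not the one nearest the best summit. Around that nearest TSS the CpG ratio was 0.695 for Kcna2, 0.260 for Kcnj9 and 0.728 for Kcnk1. Most of the CG of Kcnk1 stand in a single repeat. In the 300 bases from 250 before to 50 after the outermost TSS, marked channel genes held a median of 13 CG and unmarked ones 6, against 11 over all genes. On both strands of the same window, GGGCGG, the core of the Sp-family GC box, was found in 52.1% of marked and 38.1% of unmarked channel genes and in 43.0% of all genes. TATAAA occurred in 4 of the 94 (4.26%; all genes 12.6%), of which 1 was marked. TGACGTCA, the full cAMP response element, which itself holds a CG, was in none of the 94 windows, against 2.43% of all genes. A match is only a match of letters in this window.

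Among the classical voltage-gated families Kcna to Kcnd, 14 of 17 genes were marked, with a median of 195 and 11 genes at 150 or more. The Kcna genes encode Kv1 subunits, which sit mainly on axons and limit excitability. Kcna2 (chr3:107101146-107115005, plus strand) had the second highest score of all 94 genes, 267 (marginally below Kcnj9), from an intronic summit at position 107101913, 346 bp downstream of its nearest TSS. Kcna1, its usual partner in axonal channels, scored 240, Kcna4 222 and Kcna6 192. The member known mainly from heart and vessel muscle, Kcna5, scored 79.1. The skeletal muscle member Kcna7 (chr7:45405653-45409763, plus strand) scored 14.1, from a summit at position 45405393, 260 bp upstream of its TSS. Kcna3, best known from lymphocytes, and Kcna10 had no promoter summit, although Kcna3 had a summit of 228 just outside the window, 1047 bp downstream of its TSS. The family therefore ran from the second highest score to no promoter summit.

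Kcnb2, a Kv2 delayed rectifier, scored 210. In the Kv3 family, which allows fast spiking, Kcnc1 (chr7:46396497-46438704, plus strand) scored 213 with an exonic summit at 46396934 and Kcnc2 199. Kcnc4 had no summit in the 1 kb window, but had a summit of 161 at 1178 bp downstream of its TSS. The Kv4 genes for dendritic A-type current were all marked: Kcnd3 (chr3:105452330-105674002, plus strand) scored 186 at position 105452923, Kcnd2 179, and Kcnd1 (chrX:7822289-7838280, plus strand) 156 at position 7822406. These Kv4 scores were all at 150 or more and spanned a narrower range than those of the Kcna genes.

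The silent Kv genes (Kcnf, Kcng, Kcns and Kcnv) make no channel on their own and join Kv2 subunits. Of these 10 genes 8 were marked, and their median, 93.2, was below that of any of the families Kcna to Kcnd. Kcnv1 (chr15:45106284-45114920, minus strand) stood highest at 230, from an exonic summit at 45114387. Kcns2 (172) and Kcnf1 (169) followed, and Kcng2 (94.8), Kcng1 (91.6), Kcng3 (73.7) and Kcns3 (66.7) formed a middle group. Kcns1 (chr2:164163619-164171113, minus strand) had only a summit of 5.82, at 164170954. Kcng4 and the retinal gene Kcnv2 had none. The genes that modify Kv2 channels thus ran from 230 to no promoter summit.

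Ether-à-go-go channel genes (Kcnh) were marked in 7 of 8 cases with a median of 135. Kcnh5 (chr12:74897220-75177332, minus strand) scored highest, 225, with an exonic summit at 75176643, 689 bp downstream of its TSS, and Kcnh1, of the same eag branch, followed at 196. Of the erg branch, Kcnh7 scored 169 and Kcnh2, the cardiac repolarization gene, 135, whereas Kcnh6 had no promoter summit. The elk branch was lower throughout: Kcnh4 at 107, Kcnh3 at 101 and Kcnh8 (chr17:52602709-52979194, plus strand) at 75.02, from a summit at 52602543 that lay 166 bp upstream of its TSS. Among the marked genes of this family the eag branch was thus highest and the elk branch lowest.

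All 5 Kcnq genes were marked, with a median of 177. Kcnq3, a subunit of the neuronal M current, which restrains repetitive firing, scored 235. Kcnq5, which also contributes to that current, scored 177. Kcnq1 (chr7:143106362-143427042, plus strand), known from heart and epithelia, had the lowest promoter score of all marked channel genes, 2.63 at position 143107494. With the outermost TSS alone, only 1 Kcnq gene would count as marked (20%), namely Kcnq3.

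Among the large-conductance (Slo) genes, all 4 were marked. Kcnma1 (chr14:23289431-24014491, minus strand), the pore of BK channels, scored 251 from an intronic summit at 24003453, 11.04 kb inside its outermost TSS. The sodium-activated channel genes Kcnt1 and Kcnt2 scored 199 and 179. Kcnu1 (chr8:25849623-25937939, plus strand), which is specific to sperm, scored 15.4 at position 25911868. The small-conductance SK genes were marked in 3 of 4 cases: Kcnn3 (chr3:89520164-89675132, plus strand) at 237 from an exonic summit at 89521053, Kcnn2 at 227 and Kcnn1 (chr8:70842049-70863258, minus strand) at 99.6 from an intronic summit at 70856791. Kcnn4, the intermediate-conductance gene of red cells and lymphocytes, had none.

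The inward rectifiers (Kcnj) covered nearly the whole range of scores, with 12 of 15 marked, a median of 124 and quartiles of 55.5 and 249. Kcnj9 (chr1:172320501-172329318, minus strand) scored 267, with an intronic summit at 172329084, and the other neuronal subunits of G-protein-gated channels stood close to it, Kcnj6 at 253 and Kcnj3 at 247. Kcnj5, whose product pairs with that of Kcnj3 in the heart, scored 56.3. Of the strong rectifiers, Kcnj2 scored 257, Kcnj4 210, Kcnj12 114 and Kcnj14 (chr7:45816460-45824782, minus strand) 6.06 from an intronic summit at 45824578. Kcnj10 and Kcnj16, whose products pair in glia, scored 134 and 94.8. The pores of ATP-sensitive channels were low, Kcnj11 at 53.2 and Kcnj8 at 11.1. No promoter summit was found for Kcnj1, known from kidney, or for Kcnj13 and Kcnj15.

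Leak channels (Kcnk), which pass current at rest, were marked in 9 of 14 cases with a median of 134. Kcnk1 (chr8:125995170-126030685, plus strand) scored 261 from an intronic summit at 125995872. The mechanically gated subunits ranged from 189 for Kcnk2 and 146 for Kcnk10 to 85.9 for Kcnk4. The acid-sensitive Kcnk3 and Kcnk9 scored 187 and 129. Kcnk12 scored 134, Kcnk5 103 and Kcnk6 (chr7:29221926-29232515, minus strand) 44.7 from an exonic summit at 29232269. Kcnk7, Kcnk13, Kcnk15, the pancreatic gene Kcnk16 and the sensory neuron gene Kcnk18 had no promoter summit. Kcnk13 had a summit of 163 outside the window, 1433 bp downstream of its TSS. The share of leak channel genes with a promoter summit, 64.3%, was thus close to the 64.7% of all protein-coding genes.

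The 77 pore-forming genes were marked in 80.5% of cases (62 genes, median 169) and the 17 auxiliary genes in 64.7% (11 genes, median 197). The auxiliary genes were split by family. The cytoplasmic beta subunits were all marked, Kcnab1 (chr3:65109384-65378223, plus strand; exonic summit at 65109589) at 209, Kcnab2 at 197 and Kcnab3 (chr11:69326258-69333042, plus strand; exonic summit at 69326516) at 65.5. So were the calcium-binding KChIP genes, partners of Kv4 channels: Kcnip2 (chr19:45791839-45816061, minus strand; intronic summit at 45815568) at 222, Kcnip3 and Kcnip4 both at 201, and Kcnip1 (chr11:33629339-33993152, minus strand; intronic summit at 33843013) at 122. Of the BK beta subunits, Kcnmb4 (chr10:116417861-116473878, minus strand; exonic summit at 116473302), the brain form, scored 219 and Kcnmb2 (chr3:31902507-32200180, plus strand; exonic summit at 31902912) 99.02, whereas the smooth muscle form Kcnmb1 and Kcnmb3 had none.

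The Kcne genes, whose products span the membrane once and modify Kcnq and other channels, were lowest. Kcne3 (chr7:100176502-100184869, plus strand) scored 11.1 at position 100178569 and Kcne4 (chr1:78816758-78820028, plus strand) 6.24 at position 78817678, and Kcne1, Kcne1l and Kcne2 had no promoter summit. Kcnrg, a soluble regulator of Kv assembly, had none either. Only Kcnab2 shared its best summit with the TSS of another protein-coding gene, Nphp4, so for it the mark could not be assigned to 1 gene. The best summits of Kcnd3, Kcnh8, Kcnma1 and Kcnq5 lay nearer to the TSS of a gene that is not protein-coding, and these genes would lose their promoter summit if each summit counted only for the nearest TSS. Of 13 genes for partner proteins from other families, 10 had a promoter summit and 7 scored 150 or more, which for so short a list is close to the 64.7% and 45.1% of all genes. Those of Kv channels were all marked, with Cntnap2 (245) and Adam22 (236) of Kv1, Dpp6 (200) and Dpp10 (173) of Kv4 and Amigo1 (192) of Kv2. The sulphonylurea receptor genes of ATP-sensitive channels scored 99.1 (Abcc8) and 4.45 (Abcc9), and of the BK gamma subunits Lrrc38 scored 27.4 while Lrrc26, Lrrc52 and Lrrc55 had no summit.

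Promoter CpG content was taken as the observed over expected number of CpG dinucleotides within 500 bp of the outermost TSS in each direction. At 0.6 or more, 33 of 36 channel genes were marked (91.7%; all genes 95.5%). Between 0.4 and 0.6 the count was 24 of 26 (92.3%; all genes 80.8%). Below 0.4 it was 16 of 32 (50%, Wilson interval 33.6% to 66.4%; all genes 23.7%). The background thus lay below the counting interval in the CpG-poor class and inside it in the middle class (75.9% to 97.9%) and the CpG-rich class (78.2% to 97.1%). In the CpG-rich class the median score, 177, was below the 206 of all such genes. The CpG-poor marked genes included high scorers: Kcnj9 with a ratio of 0.272, Kcnab1 with 0.319, Kcnip3 with 0.249, Kcnc2 with 0.273 and Kcnd1 with 0.250. For Kcnma1 (0.0783) and Kcna1 (0.326) the marked start was another one, with ratios of 0.781 and 0.713 there. Of the 16 CpG-poor marked genes, 3 (18.8%) were CpG-rich and 10 (62.5%) were still CpG-poor at the marked TSS, against 31.1% and 52.4% of the 2084 such genes overall. Over the 73 marked genes, score and CpG ratio were weakly related (Spearman's rho 0.13, against 0.27 over all marked genes), as a description across genes of 1 list.

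**Figure D2:**
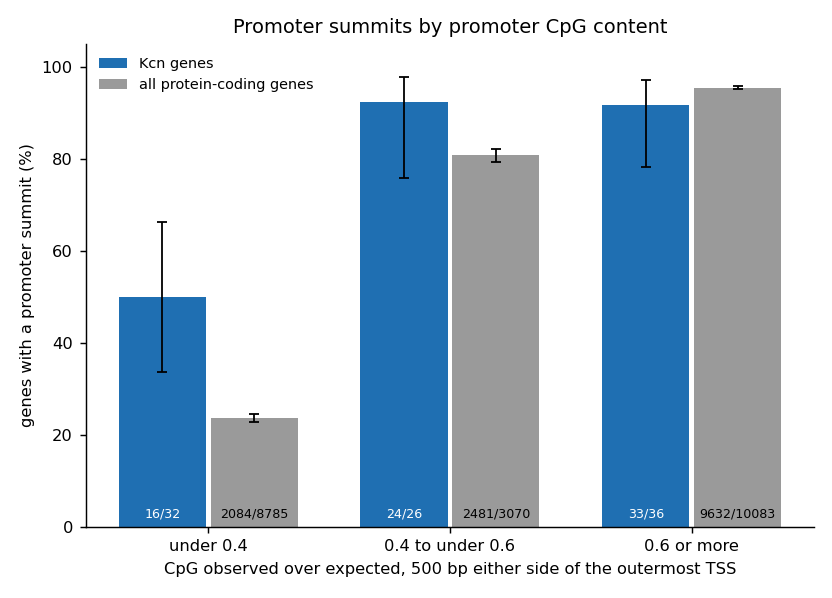
Share of genes with a promoter summit (vertical axis, %) in 3 classes of promoter CpG content (horizontal axis) for potassium channel genes (blue) and all protein-coding genes (grey); error bars are 95% Wilson intervals and figures in the bars are marked genes of all genes. In the lowest class the shares were 50% and 23.7%.

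**Figure D3:**
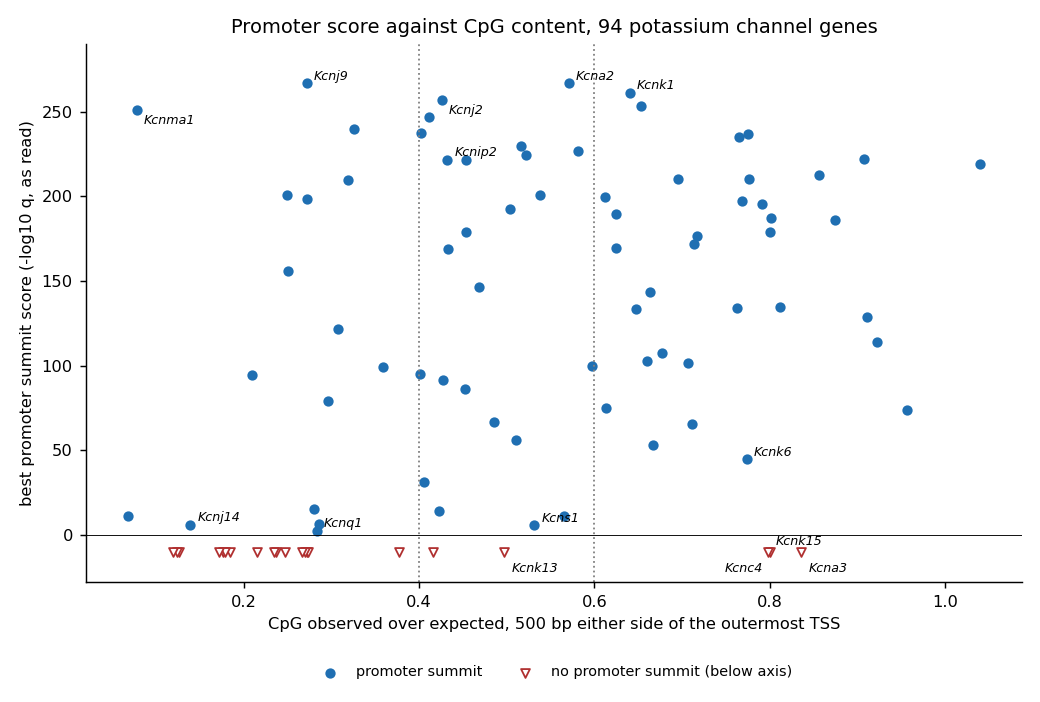
Best promoter score (vertical axis, −log10 q as read) against CpG observed over expected at the outermost TSS (horizontal axis) for the 94 potassium channel genes, with dotted lines at 0.4 and 0.6; open triangles below the axis are genes without a promoter summit. Kcnj9 and Kcnma1 score above 250 in the CpG-poor class, and Kcna3, Kcnc4 and Kcnk15 lie in the CpG-rich class without a promoter summit.

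Long genes were marked throughout. All 23 channel genes of 100 kb or more had a promoter summit (all genes of that length 89.2%), and 18 of them (78.3%; all genes of that length 63.6%) scored 150 or more. Under 100 kb, 50 of 71 had one (70.4%; all genes 61.6%), and 21 (29.6%; all genes 42.7%) scored 150 or more. High scores were thus more common than the background in long channel genes and less common in shorter ones. Within the marked channel genes, score and gene length had a Spearman's rho of 0.30 against 0.06 over all marked genes, again across genes of 1 list. The best summit lay a median of 260.0 bp from the nearest own TSS in either direction (quartiles 163 and 440.0 bp), against 222 bp over all marked genes. It was downstream of that TSS in 61 of 73 genes (83.6%; all marked genes 79.3%).

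Several channel genes were marked at separate starts. Of the 94, 19 (20.2%) had 2 or more promoter summits, against 11.7% of all protein-coding genes, and in 15 (15.96%) they lay at TSSs over 1 kb apart, against 7.21%. Among genes of 100 kb or more these shares were close, 30.4% against 30.1% and 26.1% against 23.5%. Under 100 kb they were 16.9% against 9.36% and 12.7% against 5.13%. The extreme case was Kcnip4, with 4 marked starts along 925 kb: its outermost start scored 201 (summit at 49524605 of chromosome 5), and starts 239 kb, 635 kb and 925 kb further in scored 52.4, 84.5 and 89.2 (summits at 49285581, 48889944 and 48599681). The CpG ratio was 0.616 at the outermost of these TSSs and between 0.277 and 0.343 at the inner ones. KChIP4 isoforms made from different starts are known to differ at their amino end. The 120 bases upstream of its marked starts, chosen after the values were seen, held 10 CG at the outermost (chr5:49524908-49525027), 4 (chr5:49285660-49285779) and 1 (chr5:48889558-48889677), all on the minus strand. Observed over expected CG in these bases was 0.621, 0.441 and 0.448, so the stretches with 4 and 1 CG had nearly the same ratio. The first stretch ends at the outermost TSS, 49524907, whereas the TSS nearest its summit is 49524764. At the remaining start these bases overlap an annotated exon and are not shown.
Kcnip4, outermost start: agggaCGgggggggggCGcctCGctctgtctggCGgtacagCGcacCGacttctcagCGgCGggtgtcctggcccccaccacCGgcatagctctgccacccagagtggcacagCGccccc
Kcnip4, start 239 kb in: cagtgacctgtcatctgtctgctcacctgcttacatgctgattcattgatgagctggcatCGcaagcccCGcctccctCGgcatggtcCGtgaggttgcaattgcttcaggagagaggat
Kcnip4, start 635 kb in: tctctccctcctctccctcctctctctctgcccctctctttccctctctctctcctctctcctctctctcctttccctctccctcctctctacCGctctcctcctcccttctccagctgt

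In Kcnn2 (chromosome 18) the inner start outscored the outer, 227 at 290 kb in (summit at 45559084) against 144 at the outermost (45269040). The same order held in Kcnk2, where the start 59.2 kb in (chromosome 1, summit at 189343033) scored 189 and the outermost 3.21 (189402352). It also held in Kcnip1, with 122 at 150 kb in (33843013) and 3.94 at the outermost (33992964), in Kcnt1 on chromosome 2, with 199 at 14.4 kb in (25878174) and 56.7 at the outermost (25863995), and in Kcnn1, with 99.6 at 6.47 kb in and 12.1 at the outermost (70863557). In Kcnk10 the starts were closer in score, 146 for the inner and 124 for the outermost (chromosome 12, 98573735 and 98578028). In these genes the best promoter value therefore belongs to an inner start.

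In other genes with separate marked starts the best summit lay at most 1035 bp from the outermost start. Kcnc1 had a second summit of 7.64 at 46422841, 26.3 kb in, Kcnc2 (chromosome 10, 112270589) one of 17.7 at 112315306, and Kcnj11 (chromosome 7, 46100511) one of 4.63 at 46098270. The second summit of Kcnip2 was stronger, with 55.0 at 45812502. Kcnh2 (chromosome 5) had summits of 135 and 97.8 around its outermost TSS, at 24352004 and 24351010, and 1 of 7.15 at 24329483, 22.1 kb in. In Kcnip3 (chromosome 2) the summits scored 201 at 127521059 and 9.55 at 127482470. Of the genes named here, only Kcnip2 and Kcnh2 had a further summit above 20 in score.

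**Figure D4:**
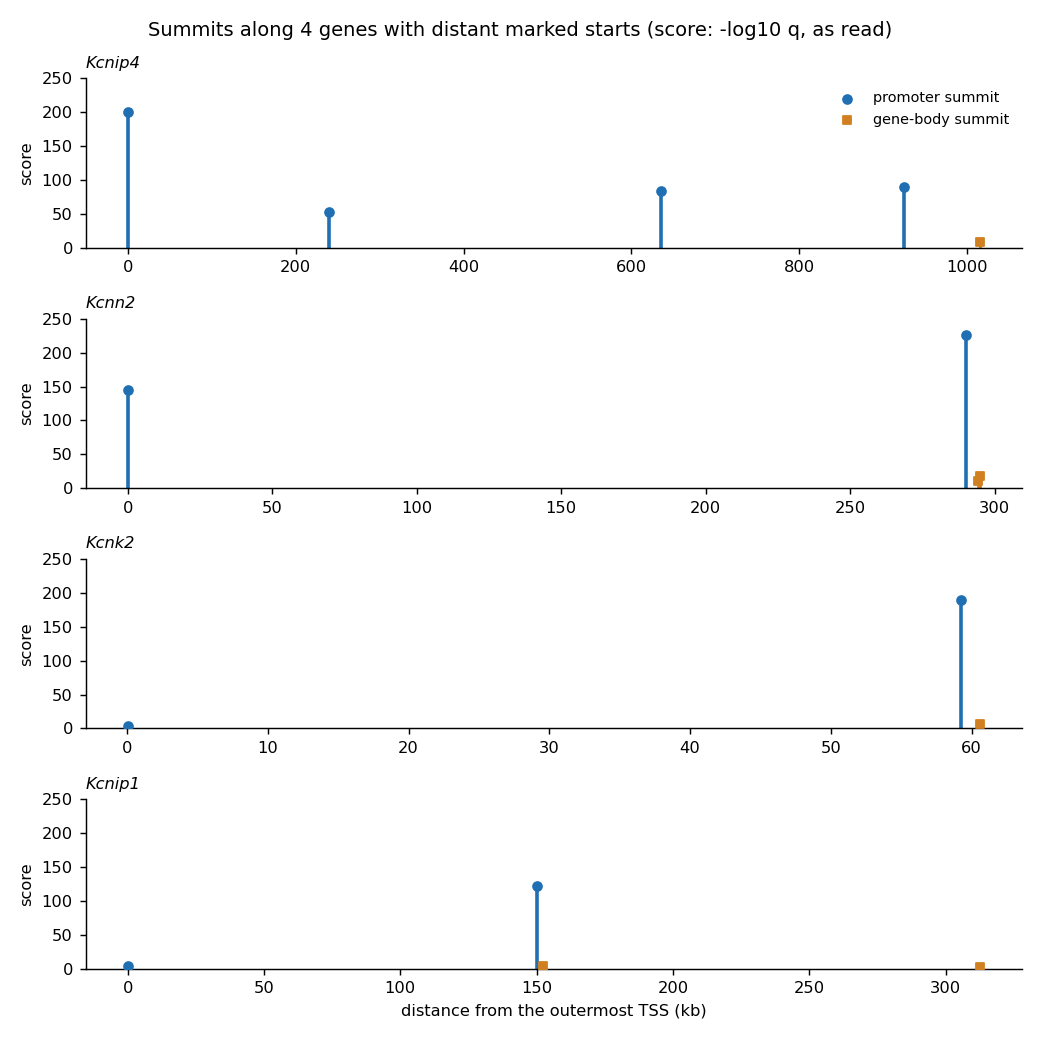
Score (vertical axes, −log10 q as read) of the H3K4me3 summits along Kcnip4, Kcnn2, Kcnk2 and Kcnip1 against distance from the outermost TSS (horizontal axes, kb; each gene has its own scale), with promoter summits in blue and gene-body summits in orange. In Kcnip4 the outermost start is highest at 201, and in the others the innermost marked start is.

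More than 1 kb from their TSSs, 34 of the 94 genes (36.2%) held 47 gene-body summits, against 14.7% of all protein-coding genes. Of these summits 17 lay within 3 kb downstream of an own TSS, a count that was not made for all genes. Channel genes are long, with a median of 30.8 kb against 17.4 kb, and per 100 kb of gene they held 0.452 such summits against 0.505 over all genes. The pooled rate joins opposite differences. Among genes of 100 kb or more, 12 of 23 channel genes (52.2%) had one, against 44.5% of all such genes, at 0.200 per 100 kb against 0.422. Under 100 kb, 22 of 71 (31.0%) had one, against 10.8%, at 1.58 per 100 kb against 0.625. Of the 47, 33 were intronic and 14 exonic, 22 scored under 10, and the median was 11.1 (14.3 over all 5422 gene-body summits of protein-coding genes). Most were thus weak, and 4 scored 150 or more.

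The strongest was in the exon of Kcna3 (chr3:107036169-107038070, plus strand), with 228 at position 107037216, 1047 bp downstream of its TSS. Likewise Kcnk13 (chr12:99964499-100062682, plus strand) had 163 at 99965958, 1433 bp downstream, and Kcnc4 (chr3:107438303-107459552, minus strand) 161 at 107458374, 1178 bp downstream. These 3 genes count as unmarked only through the 1 kb limit. Kcnh6 (chr11:106008124-106034549, plus strand) had an intronic summit of 148 at 106020393, 6620 bp from its nearest TSS. In Kcnq1, whose own promoter score was 2.63, an intronic summit at 143296254 scored 220, and its nearest TSS, 295 bp away, is that of the antisense RNA Kcnq1ot1, the imprinted transcript that silences genes of this cluster on the paternal chromosome. The 200 bases around it (chr7:143296154-143296353, plus strand), shown because this summit outscored every promoter summit of Kcnq1 and chosen after the values were seen, held 9 CG and overlap the exon of Kcnq1ot1.
Kcnq1, intronic summit: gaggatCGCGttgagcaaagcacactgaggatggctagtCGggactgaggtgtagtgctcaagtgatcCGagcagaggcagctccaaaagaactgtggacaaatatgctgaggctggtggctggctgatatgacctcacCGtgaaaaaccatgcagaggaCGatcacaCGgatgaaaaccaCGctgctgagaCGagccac

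Further down, the Kcnab3 summit of 114 lay 14 bp from the TSS of the antisense gene Kcnab3os and the Kcnab1 summit of 33.9 lay 102 bp from that of the antisense gene A330015K06Rik. In all, 4 of the 47 were within 1 kb of a TSS of another gene. The Kcnd2 intron held summits of 99.02 and 46.3, 3.35 kb and 11.3 kb from its start, at CpG ratios of 0.179 and 0.430. By contrast the summit of 34.9 in Kcnk12 and that of 82.6 in Kcng2 were exonic and CpG-rich, with ratios of 0.941 and 0.818. Of the 47, 12 had a ratio of 0.6 or more, so most gene-body summits of channel genes were not in CpG-rich sequence.

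**Figure D5:**
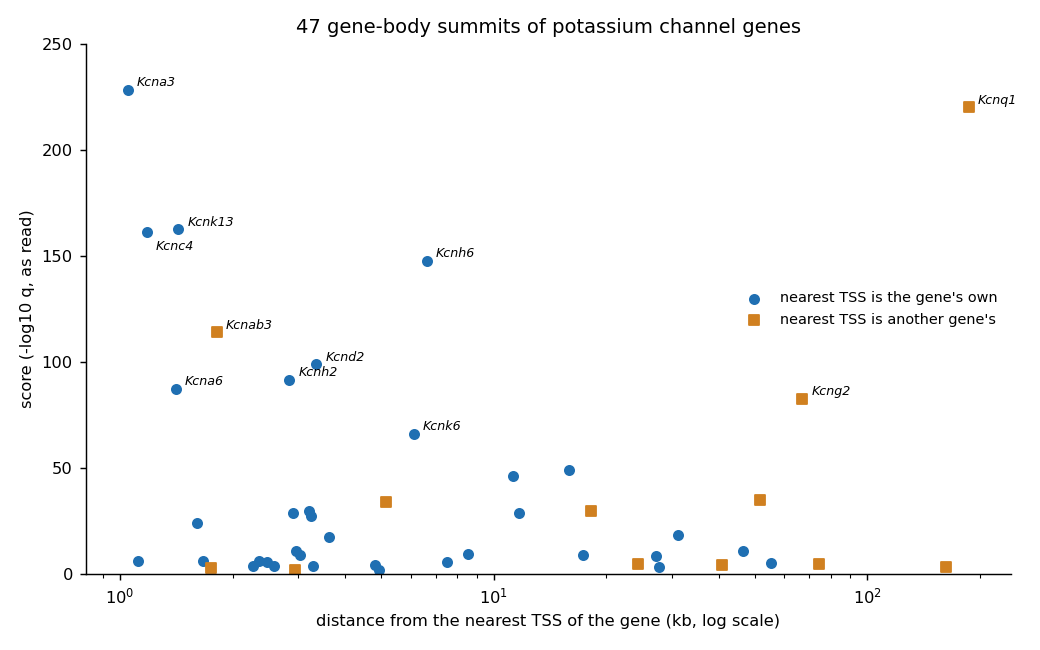
Score (vertical axis, −log10 q as read) of the 47 gene-body summits against distance from the nearest own TSS (horizontal axis, kb, log scale), coloured by whether the nearest annotated TSS belongs to the gene itself (blue) or to another gene (orange). Kcna3, Kcnk13 and Kcnc4 sit just beyond 1 kb, and Kcnq1, at 187 kb, lies by an antisense start.

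The 21 genes without a promoter summit were mostly CpG-poor: 16 were below 0.4, 2 between 0.4 and 0.6 (Kcnk13 and Kcne1l) and 3 at 0.6 or more (Kcna3, Kcnc4 and Kcnk15). Apart from Kcna3, Kcnc4 and Kcnk13, no gene had a summit closer than 3 kb to a start, and 12 had none within 10 kb. The median distance to the nearest summit was 17091 bp. Kcnk15 was thus the only CpG-rich channel gene with no summit near its start, and its nearest summit, 4813 bp downstream, scored 4.52. In several cases the nearest summit was strong and lay at the start of another gene, as for Kcne2 (205, nearest TSS Smim11), Kcnrg (160, Trim13) and Kcng4 (202, Taf1c).

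Neighbouring channel genes need not be marked alike. Among 12 pairs within 200 kb of each other, both were marked in 5, 1 in 5 and neither in 2. These pairs are not independent, as Kcna2, Kcna3 and Kcna10, and likewise Kcna1, Kcna5 and Kcna6, each stand in several of them. Pairs of neighbouring genes at large were not counted, so these counts have no background. On chromosome 3, Kcna2 (267) stands 63.1 kb from Kcna3 and 68.1 kb from Kcna10, neither of which had a promoter summit, although Kcna3 has its summit of 228 at 1047 bp from the TSS and would count as marked with a 3 kb window. On chromosome 6, Kcna1 (240), Kcna6 (192) and Kcna5 (79.1) were all marked. The divergent genes Kcnj9 and Kcnj10, 11.9 kb apart, scored 267 and 134, and Kcnj2 and Kcnj16 scored 257 and 94.8. Kcnip1 was marked, whereas Kcnmb1, which overlaps it on the other strand, was not.

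Compared with 44 genes of other voltage-gated channels (Scn for sodium, Cacn for calcium, Hcn for cyclic nucleotide-gated channels), potassium channel genes were marked less often in this list (77.7% against 84.1%, 37 of 44, with overlapping Wilson intervals of 68.2% to 84.9% and 70.6% to 92.1%) and had a lower median (169 against 185). A score of 150 or more was reached by 27 of the 44 (61.4%), against 41.5% of potassium channel genes and 45.1% of all protein-coding genes. The 44 genes are also longer, with a median of 97.3 kb against 30.8 kb, and the sets were not matched for length. Among potassium channel genes of 100 kb or more the share was 78.3%, and among shorter ones 29.6%. Gene-body summits per 100 kb differed among these families, at 0.804 for Scn, 0.436 for Hcn and 0.225 for Cacn, against 0.452 for the potassium channel genes. With 1 pooled list these are differences between sets of genes and have no replicate error.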

How the data were processed

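Per the labels and the Methods, the authors used Bowtie for alignment to mm10, SAMtools, and MACS2 (2.1.0.20140616) for peak calling over input, on reads with a unique position. The deposited WT list pools both mice and gives summits of 1 bp with a score that was read as −log10 of the q-value, since the file does not name its scale. Read depth and black-list removal cannot be read from it. There were 0 unmatched per-sample columns.

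The summits of chromosomes 1 to 19, X and Y alone were assigned with GENCODE M21 on GRCm38 (Python 3.11.15, pandas 2.3.3, pysam 0.24.0). A promoter summit lay within 1 kb of any TSS of a gene, and a gene-body summit inside the gene and over 1 kb from all its TSSs. The assignment was tested on simulated data: 100% of 2000 simulated promoter summits were recovered and 0% of 1000 placed outside. The members, subfamilies and lists were chosen with earlier results of these data known. Positions are given for the highest and lowest marked gene of subfamilies of 3 or more, for genes with starts over 1 kb apart and for the 5 strongest gene-body summits. Results for some members are not reported here, although those members are included in all counts and medians. Promoter sequences end just before the most upstream TSS within 1 kb of the summit concerned, so that they hold no annotated exon, a change from the planned TSS made after seeing the data. Protein stretches that were planned are not shown. Alternatives covered the window, TSSs, score threshold, joining of summits and CpG measure.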

Additional observations from a re-analysis of the deposited data

How the results depend on the processing

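The number of potassium channel genes with a promoter summit, 73, ranged from 49 to 76 over the alternatives: 63 when the promoter was 500 bp, 76 when it was 3 kb, 60 with the outermost TSS only (63.8% of channel genes, all genes 58.2%), 73 with protein-coding transcripts only, 68 when a summit counted only for the nearest TSS, 69 at scores of 10 or more, 49 at or above the median score and 73 with summits joined. Adding RefSeq TSSs, an alternative chosen after seeing the data, gave 74. With 500 bp the share was 67% of channel genes against 57.1% of all genes, and with 3 kb 80.9% against 67.1%. With protein-coding transcripts it was 77.7% against 63.5%, and with the nearest TSS 72.3% against 57.2%. At scores of 10 or more it was 73.4% against 62.7%. With summits joined it was 77.7% against 64.6%, and with RefSeq TSSs 78.7% against 65.6%. At or above the median score, which leaves out 24 of the marked channel genes, the shares were 52.1% of channel genes and 52% of all genes, and the median best score moved from 169 to 199, because it then covers only the stronger summits. Genes with a gene-body summit rose from 34 to 44 with the 500 bp window and 50 with the outermost TSS only, and fell to 22 with the 3 kb window, 20 at scores of 10 or more and 6 at or above the median score. No share of all genes was computed for these alternative gene-body counts. Defining CpG-rich as 0.75 or more gave 17 marked of 20 genes in place of 33 of 36. Taking CpG within 250 bp gave 32 of 35, and taking it at the TSS nearest the best summit gave 41 of 44. No share of all genes was computed for these CpG alternatives, so they have no background. Of 144 recomputed subfamily shares, 137 stayed inside their Wilson interval. The others were Kcnc at 100% (3 kb and RefSeq), Kcnq at 20% and the Slo genes at 50% (outermost TSS), and silent Kv at 30%, Kcnj at 46.7% and Kcne at 0% (at or above the median score). Precision is limited by small subfamilies and by the unknown depth behind each score. No paired analysis was possible because both WT mice stand in 1 pooled list, so no replicate could be left out either.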
